A study of Mus musculus with 4 samples.

Results

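Progenitor cells of the embryonic neural tube are sorted along the dorsal to ventral axis into bands, each of which holds its own set of transcription factors and forms its own class of neuron. The 10 genes described here, Dbx1, Dbx2, Nkx6-1, Nkx6-2, Nkx2-2, Nkx2-9, Olig1, Olig2, Olig3 and Gsx1, encode such progenitor factors of the ventricular zone. They were chosen by name, with earlier results of these data known. All 10 were found once by symbol among the 24771 features of the deposited expression table. RNA-seq was available for 4 samples. There were 2 of salivary gland placodes grown from pluripotent stem cells and harvested on day 10, labelled iE-SGs, and 2 of submandibular glands (SMGs) of E12.5 mouse embryos.

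The placodes all came from 1 line of mouse embryonic stem cells. Wells received 3000 cells, and Matrigel made up 2% of the medium after day 1. Aggregates were exposed on day 3 to BMP4 (2 ng/ml), on day 4 to bFGF (25 ng/ml) and retinoic acid (RA, 1 μM), and after day 6 to FGF10 (200 ng/ml). All placode samples received all of these factors, and no culture without RA was analysed here. For the SMGs, the strain, the number of embryos pooled and the dissection are not given in the sources used here. No source says whether the 2 samples of a group came from separate cultures or litters, so p-values measure the spread between these samples only, which may be technical. Values are FPKM, the fragments mapped to a gene, scaled by its transcript length and by the number of fragments mapped in the sample. They summed to between 361963 and 384773 per sample, and read counts behind them are unknown, so no counting interval or detection limit can be given. Differences between the groups were tested with limma on log2(FPKM + 1), for the 13193 features with a mean over the 4 samples of at least 1 FPKM. A gene is said to be called where its Benjamini-Hochberg adjusted p was below 0.05. In bulk RNA, fewer cells of a type and less RNA per cell cannot be told apart.

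Signals from both ends of the neural tube set these bands. Sonic hedgehog (Shh) from the floor plate induces the ventral factors, BMP and Wnt proteins from the roof plate act dorsally, and RA from the flanking mesoderm supports the intermediate factors. The ventral interneuron classes are named V0 to V3 from dorsal to ventral, with the motor neurons between V2 and V3. Neighbouring bands hold pairs of factors that repress each other, which sharpens the border between them. Nkx2-2, Nkx2-9, Nkx6-1, Nkx6-2, Dbx1, Dbx2 and Gsx1 are homeodomain proteins, and Olig1, Olig2 and Olig3 are basic helix-loop-helix (bHLH) proteins.

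The content of the samples differed in other ways that moved with the members. Of all tested features, 35.7% were called higher in the placodes and 40.4% lower. All 7 neural progenitor markers and all 6 neuronal markers were called higher in the placodes. Their summed FPKM was 813 and 838 against 66.1 and 62.0 for the progenitors, and 840 and 869 against 84.1 and 75.6 for the neurons. In the other direction, all 7 markers of salivary epithelium were called lower, with a summed FPKM of 3.43 and 4.32 in the placodes against 569 and 553 in the SMGs, and Krt5, Krt14 and Krt15 were listed at 0 in both placode samples. For these 7 markers the RNA of the cultures was unlike that of the SMGs, and the name placodes is kept here as the name of the samples only. The paper, in contrast, reports staining for Sox9, E-cadherin, Krt5 and Krt19 protein on day 10, and a rise of Krt5 by qPCR. Sox9 and Krt19 are not among the 7 markers, and the difference between these RNA values and the paper's staining and qPCR was not tested. Markers of endothelium (3 of 3 tested), erythroid cells (3 of 3), leukocytes (1 of 1) and skeletal muscle (2 of 2) were called lower in the placodes as well. What part the share of each cell type had in the levels of the members was not tested.

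The members form small families whose DNA-binding regions are alike, so reads could in principle be credited to the wrong paralogue. For each family, the stretch of coding sequence most alike between 2 members is shown, because it is where such reads would arise. Each is a 60-base window without gaps, 5′ to 3′ on the coding strand of the GENCODE M21 transcript, with capitals marking bases that are identical in the pair. The Dbx windows span the junction of exons 3 and 4 of 4, at chr7:49633489-49633502 and chr7:49632738-49632783 for Dbx1 and at chr15:95632278-95632291 and chr15:95624972-95625017 for Dbx2 (GRCm38, minus strand). The Nkx6 windows lie in exon 2 of 3, at chr5:101661882-101661941 for Nkx6-1 and chr7:139581929-139581988 for Nkx6-2 (minus strand). The Nkx2 windows lie in exon 2 of 2, at chr2:147184355-147184414 for Nkx2-2 and chr12:56612107-56612166 for Nkx2-9 (minus strand). The Olig windows are at chr16:91226790-91226849, in exon 2 of 2, for Olig2 and at chr10:19356947-19357006, in the only exon, for Olig3 (plus strand).
Dbx1: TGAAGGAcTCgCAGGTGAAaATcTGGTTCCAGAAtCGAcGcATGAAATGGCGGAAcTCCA
Dbx2: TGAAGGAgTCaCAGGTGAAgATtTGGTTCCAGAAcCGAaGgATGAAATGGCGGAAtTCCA
Nkx6-1: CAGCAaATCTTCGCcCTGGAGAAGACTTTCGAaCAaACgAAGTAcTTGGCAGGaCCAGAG
Nkx6-2: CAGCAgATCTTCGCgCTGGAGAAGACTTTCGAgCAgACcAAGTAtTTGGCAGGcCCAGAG
Nkx2-2: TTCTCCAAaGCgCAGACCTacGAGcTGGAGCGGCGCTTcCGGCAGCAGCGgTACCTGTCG
Nkx2-9: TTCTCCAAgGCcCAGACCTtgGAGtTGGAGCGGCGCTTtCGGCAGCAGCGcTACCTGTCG
Olig2: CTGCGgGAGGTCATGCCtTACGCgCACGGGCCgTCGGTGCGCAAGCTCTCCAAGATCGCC
Olig3: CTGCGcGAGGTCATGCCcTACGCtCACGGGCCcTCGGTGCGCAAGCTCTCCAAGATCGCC
Identical bases numbered 52 of 60 for the Dbx pair, 53 of 60 for the Nkx6 and the Nkx2 pairs, and 56 of 60 for Olig2 and Olig3. The windows of Olig1 were less alike, with 52 of 60 bases shared with Olig2 and 50 of 60 with Olig3. Between whole transcripts, the longest run without a mismatch was 14 bases for Dbx1 and Dbx2, 17 bases for Nkx6-1 and Nkx6-2, 26 bases for Nkx2-2 and Nkx2-9, and 29 bases for Olig2 and Olig3.

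All 10 members were higher in both placode samples than in either SMG sample, an order that 29.6% of all 24771 features showed. The opposite order, with both SMG samples above, was seen in 0 members and in 34.2% of all features. The sum of the 10 FPKM values came to 122.7 and 119 in the placodes, compared with 1.39 and 0.961 in the SMGs. Dbx1 alone made up 84.1% and 82.3% of that sum in the placodes. In the SMGs the larger share belonged to Dbx2, with 82.9% and 67.6%. A level of at least 1 FPKM in both samples of a group was reached by 7 members in the placodes and by 0 in the SMGs, against 50.1% and 50.5% of all features.

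**Figure D1:**
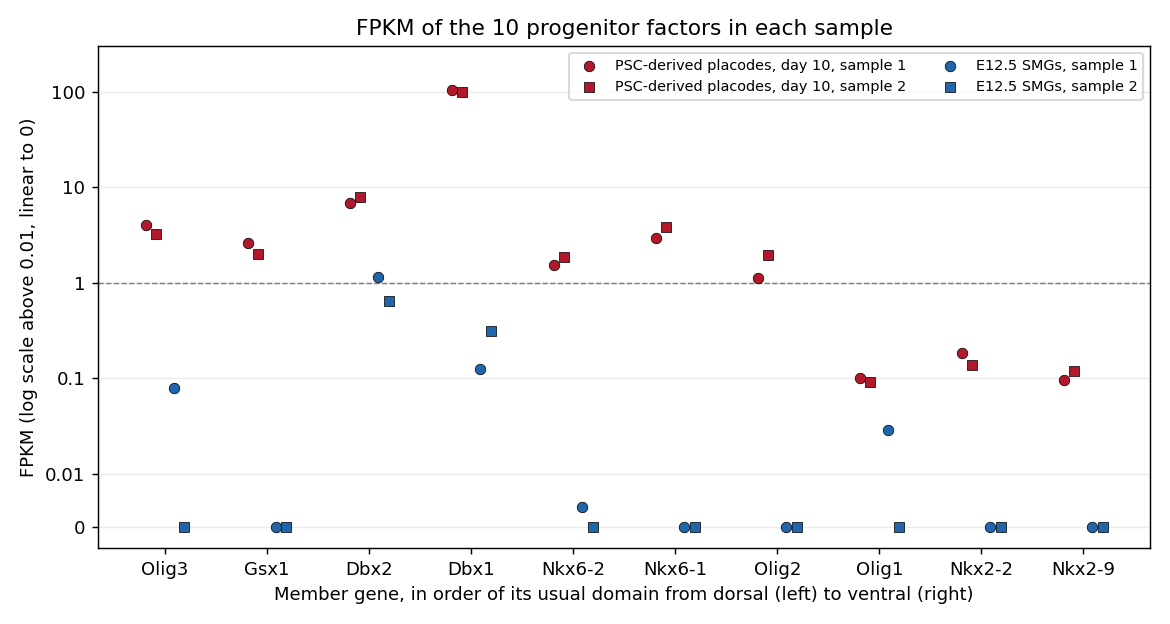
FPKM of the 10 progenitor factors in each of the 4 samples, ordered from dorsal to ventral, on an axis that is logarithmic above 0.01 FPKM and linear from there to 0, with a dashed line at 1 FPKM. Dbx1 stands at 103 and 97.9 FPKM in the placodes, and 5 genes lie at 0 in both SMG samples.

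Of the 10 members, 5 entered the test, and 5 were called higher and 0 lower in the placodes. Of all tested features, 76.2% were called, 35.7% higher and 40.4% lower. Members entered the test through their level in the placodes, so those with a mean near the minimum had to differ in order to be tested at all, and the count of called members carries no weight of its own. Because the test covers log2(FPKM + 1), differences of low genes are smaller than ratios of FPKM would be. With 2 samples against 2, an exact permutation test cannot give a two-sided p below 0.333.

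Dbx1, on chromosome 7 of GRCm38 from 49631499 to 49636849 (minus strand, ENSMUSG00000030507), encodes the factor of the progenitors that form V0 interneurons, which help to coordinate left and right limbs and, in the hindbrain, breathing. It measured 103 and 97.9 FPKM in the placodes, compared with 0.126 and 0.312 FPKM in the SMGs. The means were 100.5 ± 3.76 FPKM (SD, n = 2) and 0.219 ± 0.131 FPKM (SD, n = 2), so the samples of a group lay far closer to each other than to the other group. Dbx1 ranked 491 and 521 of the 24771 features in the placode samples, above 98.0% and 97.9% of them. The log2 difference of FPKM + 1 was 6.38 (standard error 0.10, 95% confidence interval 6.15 to 6.62, adjusted p = 1.59e-07).

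Dbx2, on chromosome 15 from 95623563 to 95655960 (minus strand, ENSMUSG00000045608), marks a wider band that includes the V0 band and its neighbours. It measured 6.87 and 7.85 FPKM in the placodes, compared with 1.15 and 0.649 FPKM in the SMGs. The means were 7.36 ± 0.688 and 0.901 ± 0.357 FPKM (SD, n = 2 each). The groups did not overlap, and Dbx2 had the highest FPKM of the 10 members in both SMG samples. The log2 difference of FPKM + 1 was 2.15 (standard error 0.15, 95% confidence interval 1.77 to 2.52, adjusted p = 3.74e-05), and the mean FPKM was 8.17-fold higher in the placodes.
The order of the Dbx paralogues was opposite in the tissues. Dbx1 had 15.0 and 12.47 times the FPKM of Dbx2 in the placode samples, while Dbx2 had 9.16 and 2.08 times the FPKM of Dbx1 in the SMG samples. This difference between the paralogues was not tested.

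Dbx1 had the highest level by far, and the stretch before its start is shown. Like that of Olig2, it held 3 of the motifs searched, the TATA box, CCAAT and the Sox core. For comparison, the promoters of Nkx6-2 and Olig2, which were under 2 FPKM in both placode samples, are given beside it. The sequences are from RefSeq (GRCm38.p6), 5′ to 3′ on the strand of the gene, and run from 250 bases before to 50 bases after the annotated start. They lie at chr7:49636786-49637085 for Dbx1 (minus strand), chr7:139582748-139583047 for Nkx6-2 (minus strand) and chr16:91225300-91225599 for Olig2 (plus strand). Capitals mark matches to the TATA box, searched as TATAAA, to the promoter element CCAAT, and to the Sox core, searched as ACAATG. Both strands were searched, so a match on the other strand is printed as its reverse complement.
Dbx1: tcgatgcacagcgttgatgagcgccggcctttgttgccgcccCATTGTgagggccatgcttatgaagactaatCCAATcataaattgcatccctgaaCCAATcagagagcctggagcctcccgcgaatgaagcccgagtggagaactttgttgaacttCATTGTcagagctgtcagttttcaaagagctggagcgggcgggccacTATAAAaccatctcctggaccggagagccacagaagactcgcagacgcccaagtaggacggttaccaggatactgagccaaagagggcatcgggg
Nkx6-2: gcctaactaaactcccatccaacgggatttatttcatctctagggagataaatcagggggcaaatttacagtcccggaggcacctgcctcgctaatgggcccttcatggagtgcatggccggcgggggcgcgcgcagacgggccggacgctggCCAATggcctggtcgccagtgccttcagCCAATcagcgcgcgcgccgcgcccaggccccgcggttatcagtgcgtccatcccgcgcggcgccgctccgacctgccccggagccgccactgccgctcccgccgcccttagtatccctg
Olig2: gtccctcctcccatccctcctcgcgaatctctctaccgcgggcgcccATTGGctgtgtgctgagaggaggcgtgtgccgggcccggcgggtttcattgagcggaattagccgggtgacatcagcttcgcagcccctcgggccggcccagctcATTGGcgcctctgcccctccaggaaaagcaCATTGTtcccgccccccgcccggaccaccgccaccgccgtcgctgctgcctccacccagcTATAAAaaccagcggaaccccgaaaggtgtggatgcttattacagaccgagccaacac
Of the 9 members with a promoter in the RefSeq table, TATAAA was found in those of Dbx1, Olig2 and Olig3, and in 13.6% of all 32851 promoters. CCAAT was found in those of Dbx1, Nkx6-2, Olig2 and Olig3, and in 37.4% of all. ACAATG, the core bound by Sox proteins, was found in those of Dbx1, Dbx2 and Olig2, and in 12.6% of all. The Gli motif TGGGTGGTC was in 0 of the 9 and in 0.253% of all, and the retinoic acid element, AGGTCA repeated after a gap of 5 bases, in 0 of the 9 and in 0.00913% of all. The Dbx1 promoter had 2 matches each to CCAAT and ACAATG, and its TATAAA began 45 bases before the annotated start. These matches are a description of the letters in the window. The Dbx1 promoter, at 103 and 97.9 FPKM, and the Olig2 promoter, at 1.13 and 1.96 FPKM, held the same kinds of match.

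The dorsal members are Olig3, which marks the most dorsal progenitors, and Gsx1, which marks progenitors of dorsal interneurons that process touch, itch and pain. Olig3, on chromosome 10 from 19356533 to 19358604 (plus strand, ENSMUSG00000045591), measured 3.99 and 3.24 FPKM in the placodes, compared with 0.0792 and 0 in the SMGs. Its log2 difference of FPKM + 1 was 2.15 (standard error 0.13, 95% confidence interval 1.83 to 2.47, adjusted p = 1.86e-05), and it rose to 6.92 with a pseudocount of 0.01 in place of 1. Gsx1, on chromosome 5 from 147188696 to 147190947 (plus strand, ENSMUSG00000053129), measured 2.63 and 2.00 FPKM in the placodes and 0 in both SMGs (limma adjusted p = 5.95e-05). Both dorsal members were thus above 1 FPKM in each placode sample and at most 0.0792 in each SMG sample.

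The Nkx6 pair of ventral homeodomain factors lay between 1.53 and 3.84 FPKM in the placodes. Nkx6-1, which marks the bands of V2 interneurons, motor neurons and V3 interneurons, lies on chromosome 5 from 101658139 to 101664996 (minus strand, ENSMUSG00000035187). It measured 2.95 and 3.84 FPKM in the placodes and 0 in both SMGs (limma adjusted p = 2.38e-05). The values of Nkx6-1 overlapped those of Olig3 in the placodes, so their order is not resolved. Nkx6-2, mainly a factor of V1 progenitors in the mouse, lies on chromosome 7 from 139579376 to 139582797 (minus strand, ENSMUSG00000041309). It measured 1.53 and 1.87 FPKM in the placodes, compared with 0.00386 and 0 in the SMGs, and its mean over the 4 samples was below the minimum for testing. Nkx6-2 shares exonic bases with Inpp5a, a gene on the other strand, and strandedness of the libraries is not given in the sources used here. Inpp5a measured 17.0 and 15.4 FPKM in the placodes, compared with 20.7 and 20.2 in the SMGs. What Inpp5a reads add to the Nkx6-2 values was not tested.

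Olig2 is the factor of motor neuron progenitors and later of the oligodendrocyte lineage, and Olig1, its neighbour on chromosome 16, acts in oligodendrocyte maturation. Olig2 (91225457 to 91228677, plus strand, ENSMUSG00000039830) measured 1.13 and 1.96 FPKM in the placodes and 0 in both SMGs. Olig1 (91269772 to 91271933, plus strand, ENSMUSG00000046160) starts 41095 bases beyond the end of Olig2 and measured 0.0996 and 0.0914 FPKM in the placodes, compared with 0.0291 and 0 in the SMGs. Olig2 was thus above 1 FPKM in the placodes and Olig1 was not, and neither reached the mean of 1 FPKM required for the test.
Markers of the oligodendrocyte lineage differed in the other direction from Olig2. Sox10, Pdgfra, Cspg4 and Gpr17 were each called lower in the placodes, as were 40.4% of all tested features. Gpr17 shares exonic bases with Lims2. Sox10, which is also a gene of Schwann cell precursors, was at 1.996 and 1.58 FPKM against 19.1 and 16.7 in the SMGs. Pdgfra, which is also a mesenchymal gene, was at 7.26 and 6.02 against 99.6 and 97.3 FPKM.

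Nkx2-2 and Nkx2-9, the most ventral members, mark the progenitors of V3 interneurons beside the floor plate. Nkx2-2, on chromosome 2 from 147177546 to 147194243 (minus strand, ENSMUSG00000027434), measured 0.185 and 0.139 FPKM in the placodes. Nkx2-9, on chromosome 12 from 56611389 to 56613284 (minus strand, ENSMUSG00000058669), measured 0.0959 and 0.119 FPKM there. Each was at 0 in both SMGs and was below the minimum for testing. Nkx2-2 shares exonic bases with its antisense gene Nkx2-2os, and Olig1 with Gm15966, and what these genes add to such low values was not tested. Outside the nervous system, Nkx2-2 and Nkx6-1 also act in pancreatic endocrine cells, whose genes Pdx1, Ins1, Ins2 and Gcg were listed at 0 in all 4 samples. Neurog3, another gene of that lineage, measured 1.31 and 1.28 FPKM in the placodes and 0 in both SMGs, and it shares exonic bases with Fam241b.

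When all 20464 features with any value above 0 were tested, 8 of the 10 members were called higher in the placodes, against 27.1% of these features. Nkx2-9 and Olig1 were the exceptions, with limma adjusted p-values of 0.0626 and 0.133.

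Placed in order of level, the placodes held Dbx1 first and Dbx2 second, each apart from the next gene in both samples. Olig3 and Nkx6-1 came next and overlapped, followed by Gsx1. Nkx6-2 and Olig2 overlapped at 1.13 to 1.96 FPKM. Nkx2-2 was apart from Nkx2-9, and Nkx2-9 overlapped Olig1 between 0.0914 and 0.119 FPKM. In the SMGs, Dbx2 was apart from Dbx1, Dbx1 from Olig3, and the other members overlapped at or near 0.

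Textbook pairs of mutually repressing factors were set side by side on the FPKM scale, which is corrected for transcript length. Bulk RNA does not show which cells hold a transcript, so these ratios describe amounts and not borders. Dbx1 had 67.3 and 52.2 times the FPKM of Nkx6-2 in the placode samples. Dbx2 had 2.33 and 2.04 times the FPKM of Nkx6-1, the closest of the pairs. Irx3, the partner of Olig2, had an FPKM of 65.5 and 66.9, which was 57.9 and 34.1 times that of Olig2. Pax6, the partner of Nkx2-2, had an FPKM of 40.7 and 42.2, or 220 and 305 times that of Nkx2-2. In each pair, the factor of the more dorsal side was the higher one in both placode samples.

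The other factors of this axis were compared in the same way. Of 20 further dorsoventral progenitor genes, 14 were tested and 14 were called higher in the placodes, where 35.7% of all tested features were called higher. The median log2 difference of FPKM + 1 of the 14 genes was 3.91, against -0.05 over all tested features. As with the members, most of the 14 entered the test through the placodes. Genes of dorsal and intermediate bands were among them. Pax3 and Pax7, factors of the dorsal neural tube, were at 20.3 and 20.5 and at 12.7 and 11.5 FPKM in the placode samples, against 0.306 and 0.473 and against 1.27 and 0.763 in the SMG samples.
Irx5 was at 45.7 and 47.1 FPKM in the placodes, against 1.07 and 1.39 in the SMGs. Neurog1 and Neurog2, which start neuronal differentiation, were at 41.5 and 45.7 and at 13.0 and 13.4 FPKM in the placodes. Neurog1 was at 0 in both SMGs, and Neurog2 was at 0.0932 and 0.0626.
Of the other tested genes, Gbx1, Gbx2, Sp8, Prdm8, Prdm12 and Prdm13 lay between 2.36 and 40.7 FPKM in the placodes and at most at 0.154 in the SMGs. The 6 untested genes were Msx1, Msx2, Gsx2, Atoh1, Ptf1a and Foxn4. Of these, Atoh1, the factor of the most dorsal interneuron progenitors, was at 0.0291 and 0.0141 FPKM in the placodes and at 0.0850 and 0.0123 in the SMGs, which overlap. Ptf1a was listed at 0.0818 and 0 in the placodes and at 0 in both SMG samples. Gsx2, the paralogue of Gsx1, reached 0.107 and 0.229 FPKM in the placodes. Of the BMP targets Msx1 and Msx2, Msx1 was lower in both placode samples, at 0.934 and 0.536 against 1.09 and 1.42 FPKM, and Msx2 was higher, at 1.17 and 1.34 against 0.0660 and 0.0841 FPKM.

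**Figure D2:**
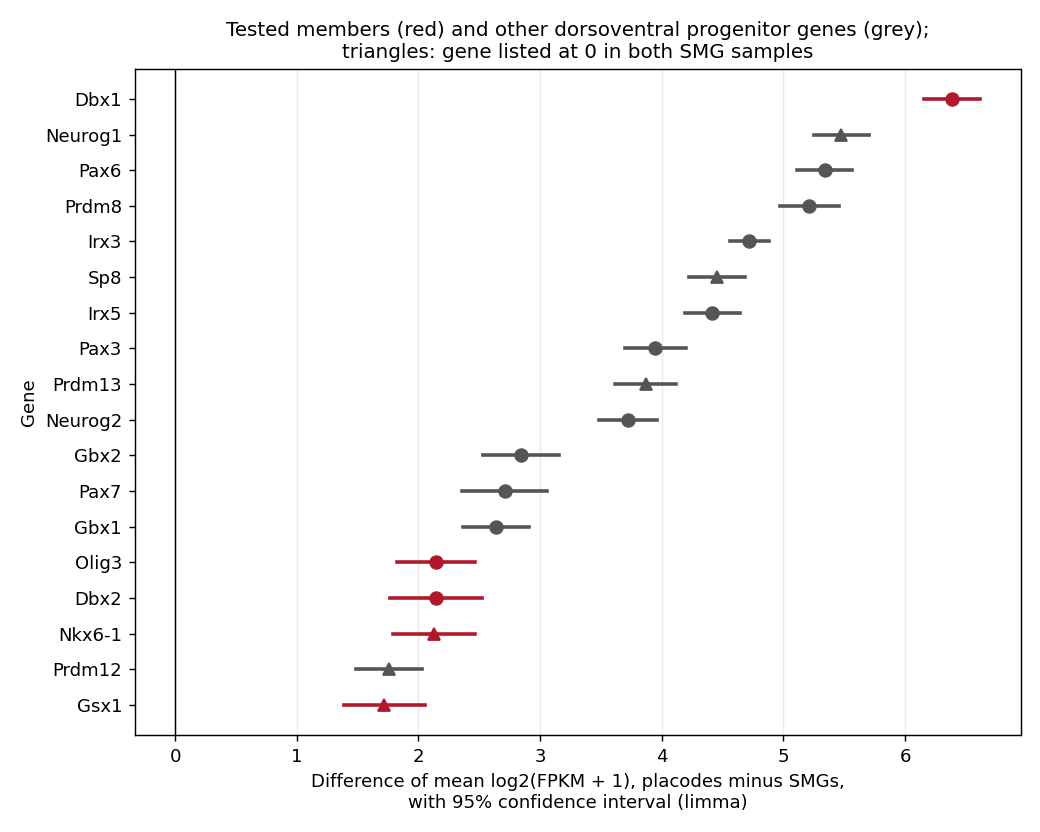
Difference of mean log2(FPKM + 1) between placodes and SMGs with its 95% confidence interval from limma, for the 5 tested members in red and 13 of the other tested dorsoventral progenitor genes in grey. Triangles mark genes listed at 0 in both SMG samples, for which the difference depends on the pseudocount of 1. Dbx1 has the highest value at this pseudocount, 6.38, and Dbx2 and Olig3 lie at 2.15, a value that for Olig3 reached 6.92 with a pseudocount of 0.01. The first place of Dbx1 depends on the pseudocount. Among the alternatives the highest value was 8.91 for Dbx1, against 12.09 for Neurog1 and 10.29 for Pax6.

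At the ends of the axis, the floor plate factor Foxa2 was low in the placodes and the roof plate factor Lmx1a lower still. Of 10 floor and roof plate genes, 4 were tested and 4 were called higher in the placodes, as were 35.7% of all tested features. Shh and Lmx1b passed the minimum through the placodes, so their calls were close to fixed. Foxa2, the floor plate factor, was at 1.32 and 1.98 FPKM in the placodes and 0.0296 and 0 in the SMGs. Shh was at 2.59 and 2.92 FPKM in the placodes and 0 and 0.0735 in the SMGs (limma adjusted p = 2.35e-05). Ntn1, which encodes the guidance protein netrin-1 and is also made outside the floor plate, was at 75.4 and 72.3 FPKM in the placodes and 6.27 and 5.53 in the SMGs. Lmx1a, the roof plate factor, was at 0.121 and 0.122 FPKM in the placodes and at 0.122 and 0.168 in the SMGs, so the groups overlapped. Of other genes listed for the roof plate, Lmx1b was at 3.37 and 4.27 FPKM against 0.0325 and 0.0977, and Rspo1 at 3.68 and 3.09 against 1.03 and 0.848. Bulk RNA does not show which cells hold these 2 transcripts, and their origin in the roof plate was not tested. The roof plate signals Gdf7, Wnt1 and Wnt3a were below 1 FPKM in all 4 samples, and Wnt3a was listed at 0 in both placode samples.

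Each progenitor band forms neurons with factors of their own, and these were read beside the members. Of the 17 ventral neuron genes listed, Evx1 had the highest FPKM in both placode samples. Evx1 and Evx2, which mark V0 neurons that descend from Dbx1 progenitors, were at 8.65 and 9.33 and at 3.76 and 4.78 FPKM in the placodes, and each was at 0 in both SMGs (limma adjusted p = 1.25e-06 and 1.28e-05). En1, of V1 neurons, was at 1.74 and 1.48 FPKM, so Evx1 had 4.98 and 6.30 times its FPKM. Of the genes found in motor neurons, Mnx1 was at 0.876 and 0.718 FPKM and Lhx3 and Lhx4, which V2 neurons also use, at 1.61 and 1.80 and at 0.922 and 1.55, each at 0 in both SMGs. The cholinergic genes Slc18a3 and Chat were at 4.07 and 4.24 and at 1.07 and 0.976 FPKM in the placodes, against 0.824 and 0.538 and against 0.136 and 0.0526 in the SMGs. Slc18a3 was called higher and overlapped Evx2 in FPKM in the placodes. Sim1, of V3 neurons, was at 0.297 and 0.342 FPKM, so Evx1 had 29.2 and 27.3 times its FPKM.
On the dorsal side, Lbx1, which marks neurons from the bands next to and dorsal of V0, was at 19.7 and 19.9 FPKM in the placodes and 1.15 and 0.459 in the SMGs. Dmrt3, of the most ventral of these dorsal classes, was at 5.40 and 5.60 FPKM against 0.448 and 0.415. Of the genes of the most dorsal class, Barhl1, Barhl2 and Lhx9 reached at most 0.153 FPKM in any sample, and Lhx2 was at 0.650 and 0.798 FPKM in the placodes against 0.219 and 0.0876 in the SMGs. Lhx1 and Lhx5, which many interneuron classes share, were at 99.95 and 105 and at 59.8 and 59.1 FPKM in the placodes and at most at 0.0262 in the SMGs.

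**Figure D3:**
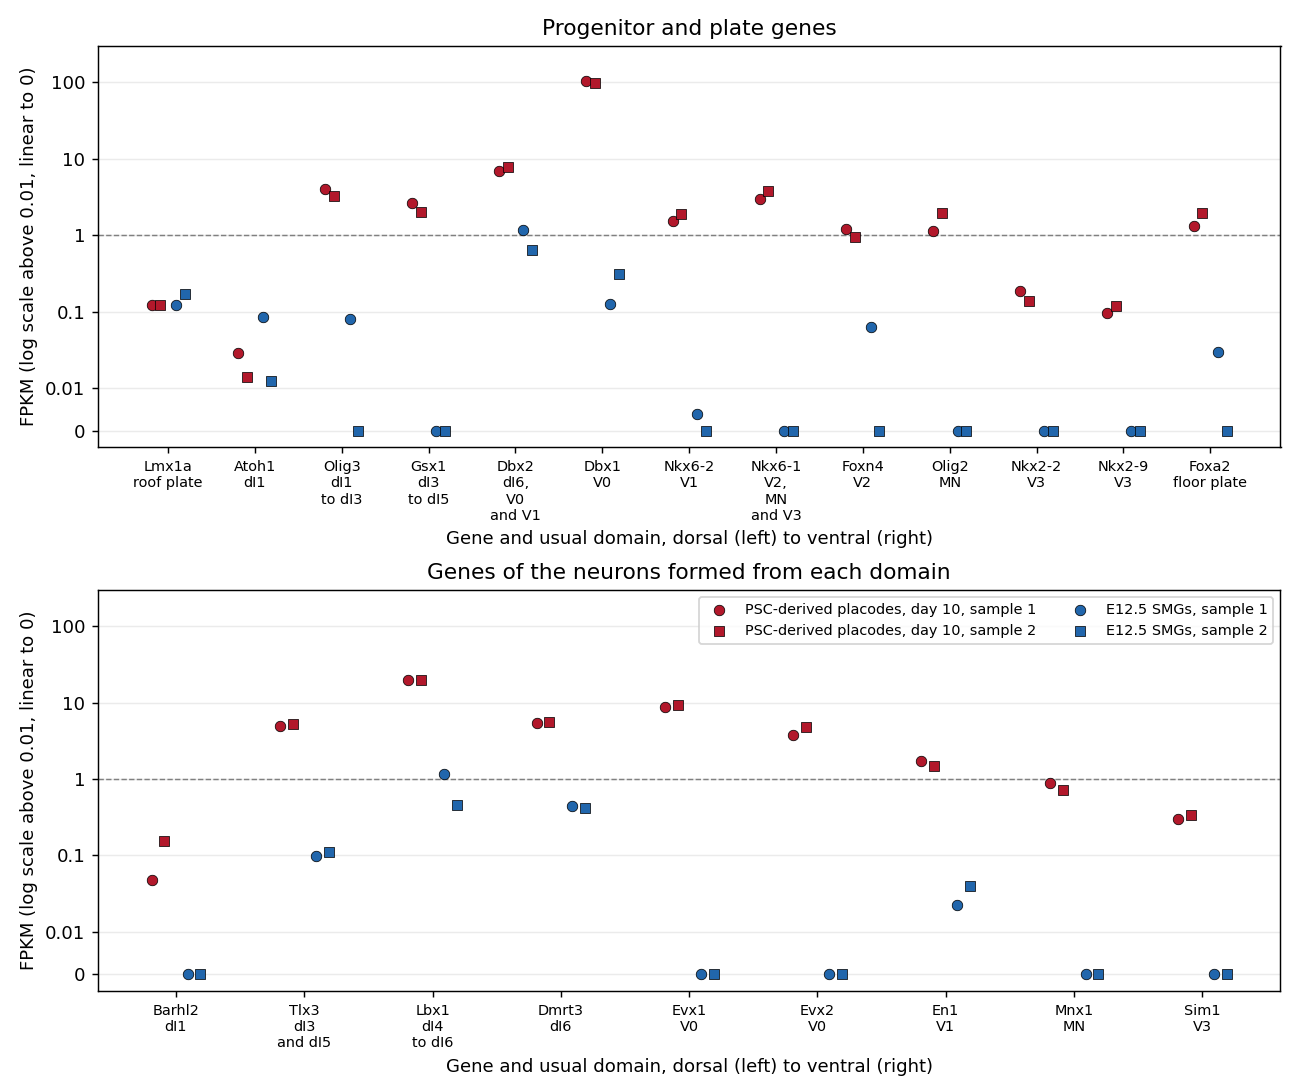
FPKM in each sample of progenitor and plate genes (top) and of genes of the neurons that form from each band (bottom), placed from dorsal to ventral, on an axis that is logarithmic above 0.01 FPKM and linear from there to 0. In the placodes the top panel peaks at Dbx1 with 103 and 97.9 FPKM, and the bottom panel at Lbx1 with 19.7 and 19.9 FPKM. Evx1 stands at 8.65 and 9.33 FPKM, above the V1, motor neuron and V3 genes.

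Of the 31 neuron identity genes listed, 17 were tested, and 12 were called higher, 3 lower and 2 neither, where 35.7% of all tested features were called higher and 40.4% lower. Genes at or near 0 in the SMGs, such as Evx1 and Evx2, passed the minimum through the placodes and had to differ. Tal1 and Isl2 were among the lower genes. The developing SMG contains a parasympathetic ganglion. Of the markers listed for it, Hand2 and Dbh were called lower in the placodes, Th higher, and Phox2a and Gfra2 neither. These genes need not be particular to the ganglion. Tal1 is a blood and endothelial gene as well as a gene of V2 neurons, and it was at 0.836 and 0.980 FPKM in the placodes against 2.20 and 2.26 in the SMGs. Gata2, which marks the same V2 neurons and is also a blood gene, was called higher, at 2.96 and 3.15 against 1.03 and 1.06 FPKM (log2 difference of FPKM + 1 of 0.99, limma adjusted p = 2.19e-04). Isl2 was at 0.447 and 0.870 against 3.47 and 3.55 FPKM. Isl1, found in motor neurons and in ganglia, differed little, at 1.49 and 1.91 against 0.958 and 1.03 FPKM (log2 difference of FPKM + 1 of 0.44, limma adjusted p = 0.0190), and was no longer called when either SMG sample was left out.

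The Hedgehog pathway induces the ventral members. Of 15 genes, 12 were tested, and 4 were called higher and 7 lower in the placodes, with a median log2 difference of FPKM + 1 of -0.29. Over all tested features 35.7% were called higher and 40.4% lower, with a median of -0.05. Common target genes of the pathway, Ptch1 and Gli1, were among the higher ones. Ptch1, the receptor and a transcriptional target, was at 29.0 and 32.7 FPKM in the placodes and 5.51 and 5.59 in the SMGs, a log2 difference of FPKM + 1 of 2.28 (standard error 0.08, adjusted p = 1.71e-06). Gli1, the other common readout of the pathway, was at 4.51 and 5.53 against 2.91 and 2.89 FPKM (log2 difference of FPKM + 1 of 0.62, limma adjusted p = 2.95e-03). Hhip, another target, was untested at 1.10 and 1.43 against 0.219 and 0.195 FPKM.
Among receptors and transducers, Smo was at 35.1 and 35.0 FPKM in the placodes against 77.1 and 79.3 in the SMGs. Of the co-receptors, Boc was higher in the placodes, at 36.3 and 35.5 against 19.8 and 19.7 FPKM, while Cdon was lower at 7.10 and 8.75 against 36.1 and 35.7 FPKM and Gas1 at 65.5 and 59.98 against 116 and 125 FPKM. Gli2 and Gli3, which carry the signal in the nucleus, were lower by 0.51 and 0.25 on that log2 scale. Gli3 was not called without placode replicate 1, nor was Disp1, which was also lost without either SMG sample. Hedgehog genes are active in the mesenchyme of many organs, and 5 of 5 listed mesenchyme markers were called lower in the placodes. Their part in these differences was not tested. Gli1, Gli3, Hhip, Gas1 and Shh, like Irx3, Gbx2, Prdm8, Prdm12, Evx1, Lhx3 and Lhx5, share exonic bases with another annotated gene, so reads of that gene could be counted with theirs. The same holds for Gpr17, Pdgfra, Krt5, Hand2, Ptf1a, Foxd3, Gata3, Phox2a and Nkx2-6, and for some markers that are counted but not named.

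**Figure D4:**
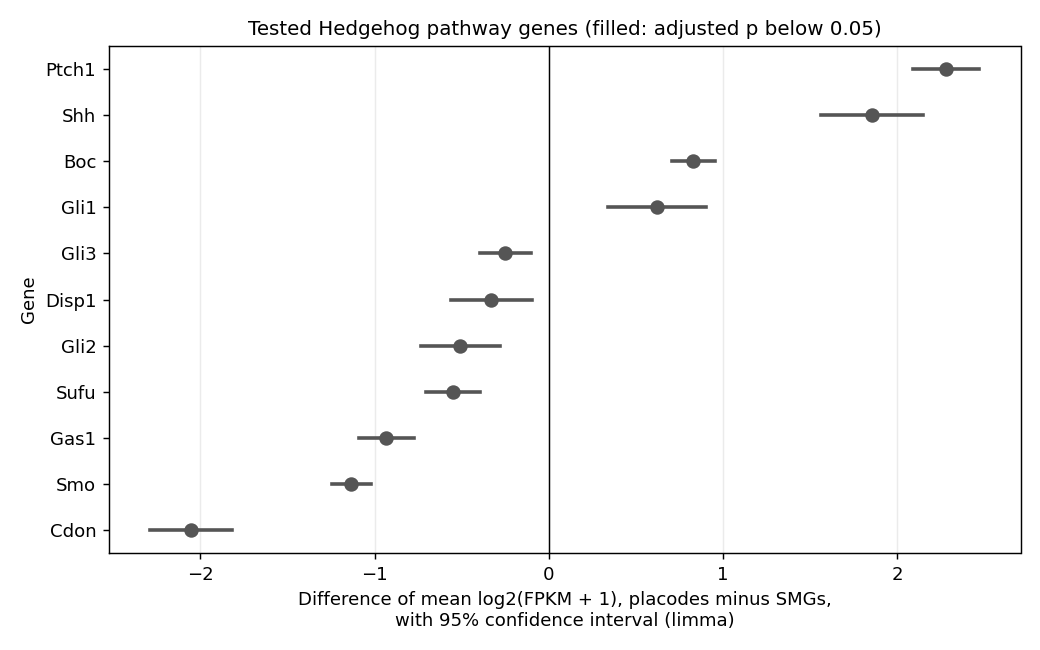
Difference of mean log2(FPKM + 1) between placodes and SMGs with its 95% confidence interval from limma, for 11 tested Hedgehog pathway genes, with filled points for an adjusted p below 0.05. Ptch1 lies at 2.28, and Smo, Cdon and Gas1 lie below 0.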

How the data were processed

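Total RNA was sequenced as paired-end reads, and the authors mapped them with HISAT2 and deposited FPKM per gene and sample. The submitters' processing notes list GRCm38 and also GRCh38, with no role. Versions, annotation, strandedness and the software behind FPKM are not given in the sources used here. Steps of whole reads were not found: among 582 features below 0.1 FPKM in both placode samples, 3.78% lay within 1% of the commonest ratio, and 3.02% of 596 in the SMGs. Depth is therefore unknown.

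Samples were grouped by their titles. From the FPKM values, log2(FPKM + 1) was tested with limma 3.58.1 in R 4.3.3 (group as the only term, eBayes with trend, two-sided, Benjamini-Hochberg adjustment over 13193 features with a mean of at least 1 FPKM, of which 4716 were called higher and 5333 lower). A difference against a group listed at 0 is given without a fold change. Coordinates, exons and transcripts are from GENCODE M21 (GRCm38), where 22022 of 22036 Ensembl identifiers were found, and promoters are from RefSeq (GRCm38.p6), which held 9 of the 10 members (not Olig1). The procedure was tested on simulated data.

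The members and gene lists were chosen with earlier results of these data known. All members are named, every gene of the 6 companion lists and of 12 cell type marker lists could be named except as stated, and other genes only as the nearest in pattern to the highest member of each family. Inpp5a, which overlaps Nkx6-2, was named after its values were seen. The motifs and the assignment of genes to bands were chosen after values were seen. Alternatives were 2 other pseudocounts, 3 other scalings, 2 other minimums, the replicate block, 2 other eBayes settings, 2 other detection levels and each sample left out in turn. Figures were drawn with Python 3.11.15. Results of 5 genes in the lists are not reported here.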

Additional observations from a re-analysis of the deposited data

How the results depend on the processing

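The differences of Dbx1, Dbx2, Nkx6-1, Olig3 and Gsx1 kept their direction and stayed past the adjusted threshold in every alternative in which they were tested (14 for Dbx1 and 13 for each of the others). For Dbx1 the log2 difference ranged from 6.27 to 8.91 and the limma adjusted p from 2.71e-08 to 1.44e-03, and for Dbx2 from 1.95 to 3.07 and from 1.71e-05 to 7.06e-03. The log2 difference of Olig3 ranged from 2.03 to 6.92, and those of Nkx6-1 and Gsx1, at 0 in both SMGs, depend on the pseudocount in the same way. All tested members passed the minimum of mean FPKM through the placodes. For Nkx6-1, Olig3 and Gsx1, with means near that minimum, the direction was close to fixed in advance, so its being kept carries no weight. The number of members called higher was 8 with no minimum of mean FPKM and 1 with a minimum of 5, and 5 in the other 12 alternatives, because the minimum sets how many are tested. Neuron identity genes called numbered 24 with no minimum and 4 with a minimum of 5, and paralogous homeobox and bHLH genes 2 with a minimum of 5. Members detected in the placodes numbered 2 at a level of 5 FPKM, and in the SMGs 2 at a level of 0.1 FPKM. With the replicate block, 5 members and 10043 features were called. Whether the replicate numbers pair the samples is not known. Deviations of same-numbered samples had a correlation of -0.0348, which cannot settle this with 2 samples a group. The block changed the call of 1 gene in all lists, Phox2a, which was not called without it. The median log2 difference of all tested features moved from -0.05 to 0.01 under TPM and to 0.00 under median-ratio scaling. Foxd3 and Gfra2 were not called as deposited and were called under all 3 other scalings, and Gata3 was called without placode replicate 2. With 2 samples a group and no read counts, the lowest values rest on an unknown number of reads. Leaving out a sample assumes that the lone sample of its group varies like the other group.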

Other observations

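Relatives of the members, of which Gsx2 and Nkx2-1 are also in the neural tube lists, differed in both directions. Of 13 paralogous homeobox and bHLH genes, 4 were tested, and 3 were called higher in the placodes and 1 lower. Over all tested features 35.7% were called higher and 40.4% lower. With no minimum of mean FPKM, the list gave 3 higher and 3 lower. Nkx1-1 was at 37.5 and 35.7 FPKM in the placodes and 0 and 0.0433 in the SMGs, a higher level than that of every Nkx member (limma adjusted p = 2.05e-07). Bhlhe22, a bHLH gene related to the Olig genes, was at 52.4 and 50.6 FPKM against 1.30 and 1.44, and Bhlhe23 at 2.28 and 1.97 against 0 in both SMG samples. Nkx1-1 and Bhlhe23 passed the minimum through the placodes, and Bhlhe23 shares exonic bases with Gm14343. Nkx2-3 was the one called lower, at 0.960 and 1.42 FPKM against 2.63 and 2.56 (log2 difference of FPKM + 1 of -0.72, limma adjusted p = 3.08e-03). Nkx2-5 and Nkx3-2, factors of mesodermal tissues, were untested and lower in both placode samples, at 0.0404 and 0 against 1.65 and 0.885 FPKM and at 0.0348 and 0.105 against 0.609 and 0.513. Nkx2-4 and Nkx2-6 were listed at 0 in all 4 samples, and Nkx2-1, the ventral forebrain factor, was below 0.05 FPKM in every sample.

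The genes nearest to Dbx1 in level over the 4 samples, by Euclidean distance of log2(FPKM + 1), were Hoxd3 (distance 0.33, at 88.3 and 87.7 FPKM in the placodes and 0.285 and 0.277 in the SMGs), Lhx1 (0.41) and Hes5 (0.45), which shares exonic bases with Gm20421. The nearest to Nkx6-1 were Pmfbp1, Trap1a and Adgra1, to Olig3 Rhcg, Fam183b and Slc6a11, and to Gsx1 Aqp6, Zic2 and Bhlhe23. For Nkx2-2, at levels near 0, they were Gm4027, Gm30191 and AF067061. Likeness over 4 samples in 2 groups reflects level and group only.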
